A study of Homo sapiens with 7 samples.

Results

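The 9 genes described here are MDM2, CDKN1A, TP53INP1, GADD45A, BTG2, SESN1, PLK2, PLK3 and AEN. All are textbook targets of the tumour suppressor p53 and are grouped as growth arrest genes, although MDM2 degrades p53 and AEN acts in apoptosis. They were chosen by name among 22257 genes measured by RNA sequencing in RL and JeKo-1, both labelled by the submitters as mantle cell lymphoma lines. Cells were left without agent or were given a BTK inhibitor for 6 h at a dose the labels do not state (the title of the series speaks of ibrutinib). There were 2 libraries each of untreated and treated RL, against a single untreated and 2 treated libraries of JeKo-1. Each is 1 established line. Separate cultures are not mentioned for libraries of one group, so p-values measure only how far these libraries scatter, possibly for technical reasons. All 9 symbols were found and all 9 passed the filter on low counts in both lines.

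p53 is a transcription factor that is held low by the ubiquitin ligase MDM2, itself a p53 target, and that is stabilised by DNA damage and other stress. It then switches on inhibitors of the cell cycle such as CDKN1A (p21), as well as genes of DNA repair, metabolism and cell death. Several of these genes also answer to other inputs. CDKN1A, GADD45A, SESN1 and TP53INP1 are known targets of FOXO factors, which are active when PI3K and AKT signalling is low. PLK2, PLK3 and BTG2 are also known as early response genes of growth factor or serum stimulation. BTK carries signals from the B-cell receptor towards the ERK, NF-kB and calcium pathways.

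B-cell markers were abundant in RL and JeKo-1, and those of other blood cells were close to 0. Levels are given in CPM, counts scaled to library size. The summed level of 6 B-cell markers lay between 2309 and 2714 CPM in RL libraries and between 957 and 986 CPM in those of JeKo-1, and CCND1 and SOX11 together made up 699 to 845 and 414 to 468 CPM. The 6 T and NK cell markers summed to 0.461 to 0.703 CPM (RL) and 0.0848 to 0.228 CPM (JeKo-1), with 1 to 3 of them at 0 in each library. The 6 myeloid markers summed to 2.35 to 2.88 and 0.763 to 1.27 CPM, with 2 or 3 at 0.

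The region just before the start of 5 of the genes is shown because p53 binds a repeated decamer, and its presence can be set beside the response of each gene. Sequences are the 250 bases before a RefSeq start (GRCh38.p14, the gene's own strand), with matches to the p53 decamer in capitals:
AEN, chr15:88621090-88621339, plus strand: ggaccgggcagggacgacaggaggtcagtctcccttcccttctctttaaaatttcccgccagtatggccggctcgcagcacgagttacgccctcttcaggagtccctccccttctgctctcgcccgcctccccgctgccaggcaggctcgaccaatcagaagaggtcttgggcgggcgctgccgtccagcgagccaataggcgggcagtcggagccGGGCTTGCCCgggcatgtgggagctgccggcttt
PLK2, chr5:58460087-58460336, minus strand: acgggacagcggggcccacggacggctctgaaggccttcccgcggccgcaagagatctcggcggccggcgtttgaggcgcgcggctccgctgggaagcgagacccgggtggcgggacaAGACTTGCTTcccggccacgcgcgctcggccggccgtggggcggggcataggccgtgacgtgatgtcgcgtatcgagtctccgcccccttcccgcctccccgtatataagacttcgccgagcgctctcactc
SESN1, chr6:109008989-109009238, minus strand: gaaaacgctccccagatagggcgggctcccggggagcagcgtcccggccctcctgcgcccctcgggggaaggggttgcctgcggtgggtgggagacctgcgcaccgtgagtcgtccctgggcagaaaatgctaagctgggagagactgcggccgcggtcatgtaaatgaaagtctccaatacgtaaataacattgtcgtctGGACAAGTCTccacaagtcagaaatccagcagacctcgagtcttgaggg
CDKN1A, chr6:36678464-36678713, plus strand: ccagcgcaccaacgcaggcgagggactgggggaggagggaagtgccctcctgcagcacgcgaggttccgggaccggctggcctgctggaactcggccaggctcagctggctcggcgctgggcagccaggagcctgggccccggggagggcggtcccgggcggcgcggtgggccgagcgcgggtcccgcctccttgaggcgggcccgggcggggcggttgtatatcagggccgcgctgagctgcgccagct
BTG2, chr1:203305269-203305518, plus strand: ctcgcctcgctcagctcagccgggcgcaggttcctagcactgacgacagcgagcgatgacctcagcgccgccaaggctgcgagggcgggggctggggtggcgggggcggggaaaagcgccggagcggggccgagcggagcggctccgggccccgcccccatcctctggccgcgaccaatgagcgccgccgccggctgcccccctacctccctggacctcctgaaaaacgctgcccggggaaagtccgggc
RefSeq windows of 7 of the 9 genes were searched, and GADD45A and TP53INP1 were left out of the search. A decamer match on either strand was found in AEN (GGGCTTGCCC, bases 34 to 25 before the start), PLK2 (AGACTTGCTT, bases 132 to 123) and 1 of 3 SESN1 windows (GGACAAGTCT, bases 49 to 40). Of all 34788 distinct windows of this length, 5.59% held such a match. The FOXO element GTAAACA (2.98% of all windows), the cyclic AMP element TGACGTCA (1.64%), the EGR element GCGTGGGCG (0.722%) and the CArG box of serum response factor (1.17%) were in none of the windows of the 7 genes. These letters describe only these windows. The p53 elements of CDKN1A are known to lie further upstream. Those of MDM2 are known to lie at an internal promoter, and its windows included a downstream start (chr12:68808767-68809016) without an exact match. The search allowed no mismatch to the decamer, so a window without a match can still hold a p53 element. A match is not evidence of binding. The 3 genes with a match did not share a response, since SESN1 rose and PLK2 fell in RL while AEN fell in JeKo-1.

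Treatment moved the 9 genes in both directions, and 5 of them moved the same way in both lines. TP53INP1, GADD45A and BTG2 rose in RL and in JeKo-1, whereas CDKN1A and PLK3 fell in both. In RL, SESN1 also rose and PLK2 also fell, and MDM2 and AEN did not pass the test. In JeKo-1, MDM2 also rose and AEN also fell, and SESN1 and PLK2 did not pass. This makes 4 higher and 3 lower of 9 in each line, 7 of 9 in all. Of 14932 genes tested in RL, 30.4% were called, 15.1% higher and 15.3% lower. Of 14050 tested in JeKo-1, 28.3% were called, 13.4% higher and 14.9% lower. The median absolute log2 fold change of the 9 genes was 0.76 in RL and 0.60 in JeKo-1, beside 0.17 and 0.19 over all genes tested. Their signed medians were 0.09 and 0.21, beside 0.01 and -0.01 over all genes. The 9 genes were chosen with earlier results of these data known, so setting them beside all genes is description only. In bulk RNA, a change in RNA per cell and a change in the share of cells that carry a transcript cannot be told apart.

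**Figure D1:**
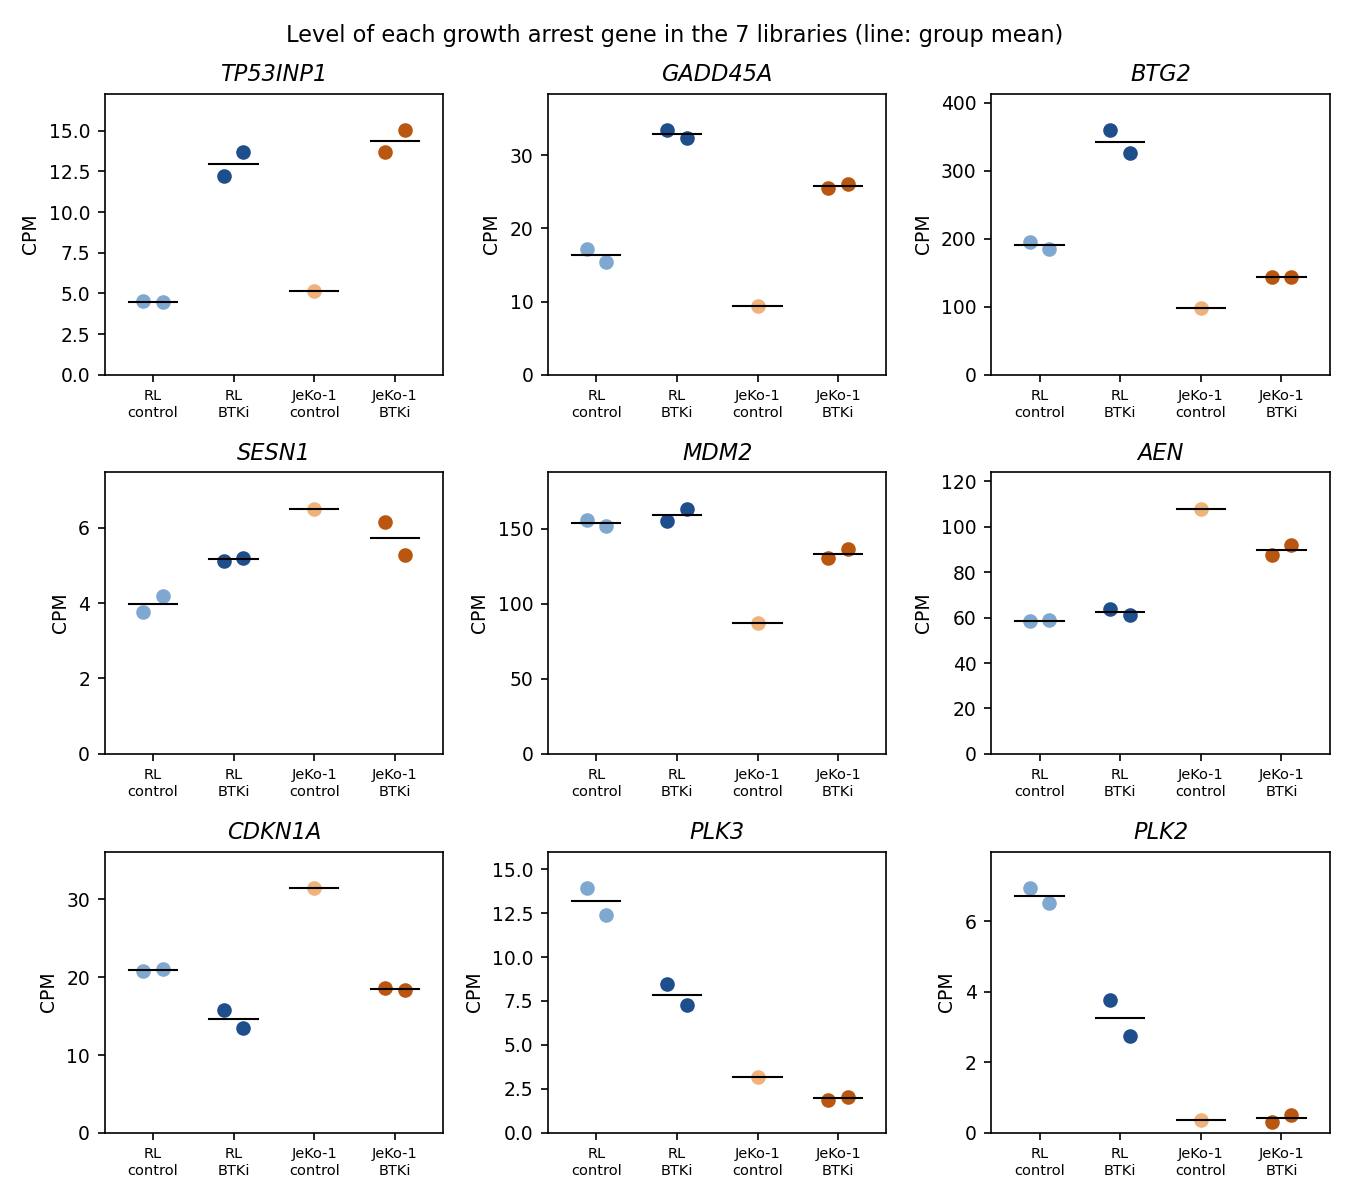
Level of each of the 9 genes in CPM (vertical axes from 0, scale differing by gene) in the 7 libraries, with points for libraries and lines for group means. In each line, treated libraries lie above the controls of that line for TP53INP1, GADD45A and BTG2 and below them for CDKN1A and PLK3.

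TP53INP1, a stress-induced nuclear protein that takes part in p53 activation and autophagy, had the largest rise of the 9 genes in RL, and in JeKo-1 its rise and that of GADD45A were within their errors. It stood at 4.55 and 4.45 CPM in the RL controls and at 12.2 and 13.7 CPM in the treated RL libraries. In JeKo-1 it went from 5.17 CPM in the control to 13.7 and 15.04 CPM. All 4 treated libraries were far above the 3 controls, and the controls of the lines were close together. The log2 fold change was 1.53 ± 0.10 in RL (adjusted p = 6.73e-07) and 1.47 ± 0.14 in JeKo-1 (adjusted p = 5.01e-25). These and the tests below are from edgeR's quasi-likelihood test, adjusted over all transcripts, with standard errors after ±. Among genes averaging at least 5 CPM in a line, 29 of 9947 in RL and 81 of 9464 in JeKo-1 had a larger absolute change.

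GADD45A, which binds PCNA and cyclin B1 complexes and slows the cell cycle, stood at 17.2 and 15.4 CPM in the RL controls and 33.4 and 32.4 CPM after treatment. The JeKo-1 control was at 9.36 CPM and its treated libraries at 25.6 and 26.1 CPM. The groups were well separated in both lines. The log2 fold change was 1.01 ± 0.07 in RL (adjusted p = 1.03e-06) and 1.46 ± 0.11 in JeKo-1 (adjusted p = 5.6e-39). The JeKo-1 p-values rest on 1 residual degree of freedom and on a spread borrowed across transcripts. In the joint fit of all 7 libraries the same JeKo-1 contrast gave GADD45A an adjusted p of 1.98e-09, and no call among the 9 genes changed there.

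BTG2, an antiproliferative partner of the CCR4-NOT deadenylase, had the highest mean level per kilobase of the 9 genes in each of the 4 groups. It stood at 196 and 185 CPM in the RL controls and 360 and 326 CPM after treatment, and at 98.1 CPM in the JeKo-1 control and 144 and 143 CPM after treatment. Treated JeKo-1 thus stayed below untreated RL. Its rise was 0.85 ± 0.06 on the log2 scale in RL (adjusted p = 1.03e-06) and 0.54 ± 0.07 in JeKo-1 (adjusted p = 2.57e-14).

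CDKN1A, the p21 inhibitor of cyclin-dependent kinases and the best known p53 target of cell cycle arrest, fell in both lines. Its level was 20.8 and 21.1 CPM in the RL controls and 15.8 and 13.5 CPM after treatment. In JeKo-1 it was 31.5 CPM in the control and 18.6 and 18.4 CPM after treatment, below the RL controls. No treated library reached a control of its own line. CDKN1A fell by 0.52 ± 0.08 on the log2 scale in RL (adjusted p = 5.82e-04) and by 0.77 ± 0.09 in JeKo-1 (adjusted p = 4.02e-16). Its other listed transcript repeats nearly the same reads and is no separate evidence.

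PLK3 and PLK2 are polo-like kinases of the stress response that are known to restrain cell cycle progression, in contrast to the mitotic PLK1. PLK3 stood at 13.9 and 12.4 CPM in the RL controls and 8.44 and 7.27 CPM after treatment, and at 3.20 CPM in the JeKo-1 control and 1.87 and 2.06 CPM after treatment. Its log2 fold change was -0.76 ± 0.10 in RL (adjusted p = 1.50e-04) and -0.71 ± 0.22 in JeKo-1 (adjusted p = 0.00595). Behind the JeKo-1 values are 126 control counts and 66 and 76 counts after treatment. The call was lost without treated replicate 1 (adjusted p = 0.0831) and with DESeq2 (adjusted p = 0.389).

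PLK2 was a gene of RL and nearly silent in JeKo-1. In RL it fell from 6.95 and 6.52 CPM to 3.77 and 2.75 CPM, by 1.09 ± 0.14 on the log2 scale (adjusted p = 1.17e-04). The JeKo-1 libraries held 14 counts in the control and 11 and 19 after treatment, which is 0.355, 0.311 and 0.515 CPM. Counts this low leave a wide error, and PLK2 did not pass the test there, with a log2 fold change of 0.21 ± 0.56 (adjusted p = 0.822) whose sign turned without treated replicate 2 (-0.18).

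MDM2, the ligase that degrades p53, stood at 156 and 152 CPM in the RL controls and 155 and 163 CPM after treatment, so that the groups overlapped. Its log2 fold change in RL was 0.05 ± 0.05 (adjusted p = 0.46). In JeKo-1 it went from 87.3 CPM to 130 and 137 CPM, a rise of 0.60 ± 0.07 (adjusted p = 2.22e-17). The deposited table has 1 MDM2 transcript, so transcripts from its upstream and internal promoters were not separated here.

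SESN1, a sestrin that restrains mTORC1, was lowly expressed, at 3.77 and 4.18 CPM in the RL controls and 5.13 and 5.20 CPM after treatment. It rose by 0.38 ± 0.11 in RL (adjusted p = 0.0225). That call was lost without control replicate 1 (adjusted p = 0.157), without treated replicate 2 (adjusted p = 0.0693) and with DESeq2 (adjusted p = 0.172). In JeKo-1 it stood at 6.49 CPM in the control and 6.16 and 5.28 CPM after treatment (-0.19 ± 0.15, adjusted p = 0.388).

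AEN, a nuclease of p53-dependent apoptosis, stood at 58.3 and 59.0 CPM in the RL controls and 64.0 and 61.1 CPM after treatment (0.09 ± 0.05, adjusted p = 0.201). In JeKo-1 it went from 108 CPM to 87.6 and 92.1 CPM, a fall with a log2 fold change of -0.27 ± 0.07 (adjusted p = 3.42e-04). Without treated replicate 1 this call was lost (adjusted p = 0.0546). In the authors' deposited table, the log2 ratios in RL ran from -1.06 for PLK2 to 1.54 for TP53INP1, and SESN1 had an FDR of 0.0512.

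**Figure D2:**
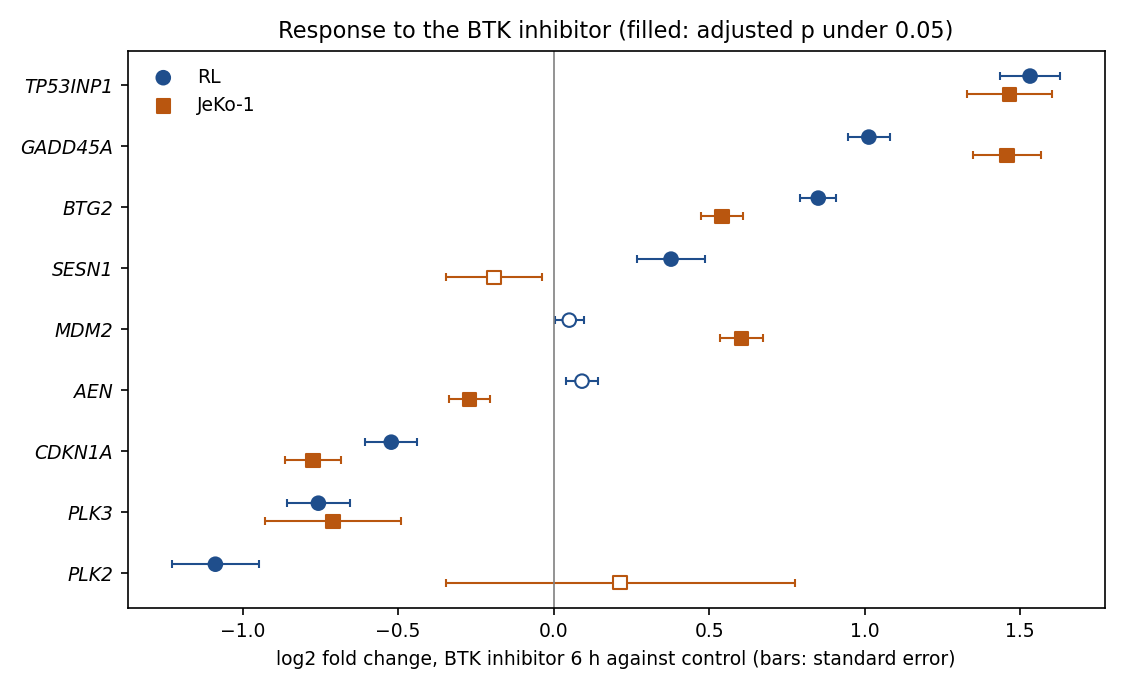
Log2 fold change (horizontal axis) of each gene after 6 h of BTK inhibitor, with bars for the standard error, circles for RL and squares for JeKo-1, filled where the adjusted p was under 0.05. Filled symbols of both lines lie on the same side of 0 for TP53INP1, GADD45A, BTG2, CDKN1A and PLK3.

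The lines differed in the size of the response for 5 of the 9 genes, 2 with a higher and 3 with a lower value in JeKo-1, beside 17.8% of 15845 genes tested (8.82% higher and 8.95% lower). Signed differences are JeKo-1 minus RL on the log2 scale, from the joint fit. They were positive for MDM2 (0.57 ± 0.08, adjusted p = 4.27e-05) and GADD45A (0.46 ± 0.12, adjusted p = 0.0136). They were negative for AEN (-0.35 ± 0.08, adjusted p = 0.006), BTG2 (-0.30 ± 0.09, adjusted p = 0.0228) and SESN1 (-0.56 ± 0.19, adjusted p = 0.0431). The MDM2 and AEN differences kept their calls in all 12 alternatives, with adjusted p of at most 9.38e-04 and 0.0354. The GADD45A call was lost without RL control replicate 1 (adjusted p = 0.0659). BTG2 lost its call without RL control replicate 2 (adjusted p = 0.0822), RL treated replicate 1 (0.0671) or either treated JeKo-1 library (0.0729 and 0.0686), and SESN1 without RL control replicate 1 (0.142), either treated RL library (0.0566 and 0.0868) or treated JeKo-1 replicate 2 (0.127). With DESeq2 the adjusted p was 0.0586 for BTG2 and 0.272 for SESN1, and SESN1 also missed the threshold with median-ratio scaling (0.0502) and limma-voom (0.0536).

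No difference in response was called for TP53INP1 (-0.05 ± 0.17), PLK3 (0.06 ± 0.22), CDKN1A (-0.24 ± 0.12) or PLK2 (1.32 ± 0.52), with adjusted p of 0.898, 0.915, 0.217 and 0.0872. CDKN1A was called without RL treated replicate 2 (-0.37, adjusted p = 0.0463), and PLK2 without RL treated replicate 1 (1.52, adjusted p = 0.0261) and with no filter (adjusted p = 0.0285).

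In the joint fit, 8 of the 9 genes differed between the untreated lines, 3 higher and 5 lower in JeKo-1. Of all genes tested, 76.4% differed, 37.2% higher and 39.1% lower. The lone JeKo-1 control is assumed there to vary like the other groups, and line cannot be told apart from anything else that set this library apart. PLK2 was 18.8-fold and PLK3 4.12-fold lower in JeKo-1, at log2 differences of -4.23 ± 0.30 and -2.04 ± 0.15. BTG2 (-0.96 ± 0.07), MDM2 (-0.82 ± 0.06) and GADD45A (-0.80 ± 0.10) were lower as well, whereas AEN (0.88 ± 0.06), SESN1 (0.70 ± 0.14) and CDKN1A (0.59 ± 0.09) were higher. The adjusted p-values of these 8 ran from 1.06e-10 to 1.92e-04, and their calls held in all 12 alternatives. TP53INP1 had a difference of 0.20 ± 0.14 (adjusted p = 0.207). This comparison and the difference in response share the control libraries.

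**Figure D3:**
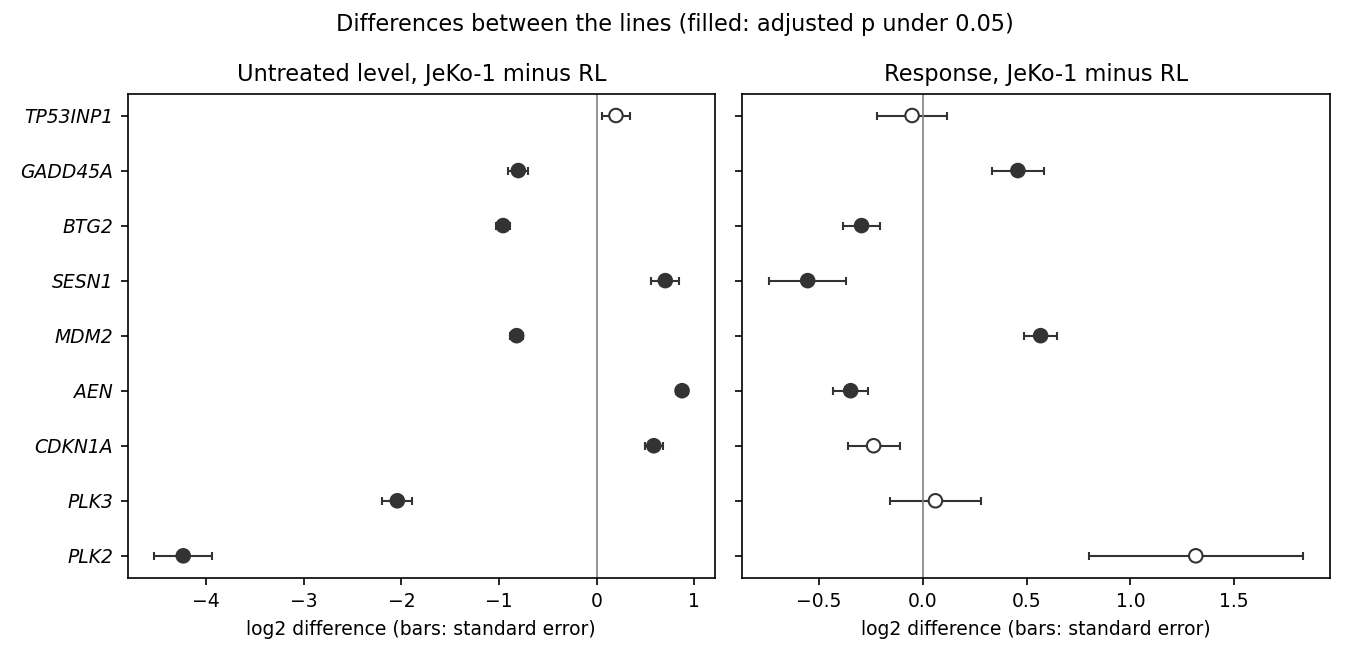
Log2 difference between JeKo-1 and RL for each gene in untreated cells (left) and in the response to the inhibitor (right), with bars for the standard error and filled points where the adjusted p was under 0.05. The largest untreated difference is that of PLK2 at -4.23, and the MDM2 response is 0.57 higher in JeKo-1.

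Levels per kilobase of transcript allow the genes to be ranked within a line. In the RL controls the order in CPM per kilobase was BTG2 (70.2), AEN (18.8), MDM2 (12.2), GADD45A (10.9), CDKN1A (9.59), PLK3 (5.28), PLK2 (2.27), SESN1 (1.13) and TP53INP1 (0.800). No neighbours in that order overlapped between the 2 libraries. In the JeKo-1 control, BTG2 (36.2) and AEN (34.6) were close at the top, CDKN1A followed at 14.4, and MDM2 (6.91) and GADD45A (6.26) stood next. Below them came SESN1 (1.85), PLK3 (1.28), TP53INP1 (0.919) and PLK2 (0.120), with no replicate to give their spread. After treatment GADD45A passed AEN in RL (22.0 and 20.1 CPM per kilobase) and passed CDKN1A in JeKo-1 (17.3 and 8.48). Lengths come from a later annotation than the authors' counts, and MDM2's 12633 bases in particular may differ from the model they counted, which would move its rank.

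In GENCODE v29, exons of 4 of the genes overlap those of a neighbour, and the libraries do not mark strand. The shared part is at most 7.09% of the exon bases, in SESN1 with the antisense gene AL390208.1, and it is 5.91% in MDM2 with AC025423.4 and 4.79% in CDKN1A with DINOL. Counts of the neighbours below were lower than those of the genes they overlap. TCTEX1D4 shares 2.24% of the exon bases of PLK3 and held 65 and 76 counts in the RL controls, where PLK3 held 582 and 605. In JeKo-1, TCTEX1D4 held 23 counts in the control and 11 and 14 after treatment, where PLK3 held 126, 66 and 76. The carboxypeptidase M gene shares 1% of the exon bases of MDM2 and held 227 to 295 counts in JeKo-1, where MDM2 held 3443 to 5040.

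Genes with the most similar pattern were sought among 8775 genes averaging at least 5 CPM in each line, by the distance over the 7 libraries of log2 CPM relative to the control mean of the line. For CDKN1A they were the adaptor gene SH2B3 (distance 0.196), the immediate early gene IER5 (0.204) and the NF-kB inhibitor gene NFKBIE (0.211). MDM2 was nearest to LOC100129387 (0.0921), EDEM1 (0.112) and KIAA0922 (0.120), and TP53INP1 to COL9A3 (0.332), CHST15 (0.431) and RNF144B (0.530). SH2B3 had log2 fold changes of -0.46 in RL and -0.79 in JeKo-1, COL9A3 of 1.56 and 1.21.

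Other p53 targets were called in both directions. The lists here and below were chosen with earlier results of these data known. Of all genes tested, 15.1% were called higher and 15.3% lower in RL, and 13.4% and 14.9% in JeKo-1. Of 16 further targets with roles in arrest and repair, 14 could be tested in each line. In RL 5 rose and 2 fell, and in JeKo-1 4 rose and 2 fell, with list medians of 0.059 and 0.011 on the log2 scale beside 0.007 and -0.007 over all genes. The translesion polymerase gene POLH rose in both (0.50 ± 0.05 and 0.52 ± 0.07), as did the ribonucleotide reductase gene RRM2B (0.53 ± 0.06 and 0.27 ± 0.10). RRM2B's JeKo-1 call was lost without treated replicate 1 (adjusted p = 0.296), and the 4 JeKo-1 rises of the list were 1 in that fit, with scaling by library size only or in DESeq2, and 2 without treated replicate 2. The 2 falls in RL were 1 without any 1 of control replicates 1 and 2 and treated replicate 1, and 3 without treated replicate 2. DDB2, of nucleotide excision repair, rose in RL (0.44 ± 0.07), and ZMAT3, an RNA-binding p53 target, fell in JeKo-1 (-0.65 ± 0.11).

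Of 12 p53 targets of cell death, 2 rose and 0 fell among 11 tested in RL, and 2 rose and 3 fell among 10 tested in JeKo-1. The list medians were 0.012 and 0.024. Over all genes tested, 15.1% were called higher and 15.3% lower in RL, and 13.4% and 14.9% in JeKo-1. The BH3-only gene BBC3 (PUMA) rose in RL from 1.44 to 2.87 CPM, by 1.03 ± 0.17, and PIDD rose by 0.58 ± 0.12. In JeKo-1 the death receptor gene TNFRSF10A fell (-0.66 ± 0.17, a call absent in DESeq2) and BCL2L1 rose (0.43 ± 0.10). The list does not separate genes that promote cell death from genes that oppose it. A rise on it is therefore not by itself a change towards death. Without either treated library the counts in JeKo-1 were 1 higher and 1 lower, and in DESeq2 they were 1 and 0. BAX had log2 fold changes of 0.01 (adjusted p = 0.893) and 0.05 (adjusted p = 0.85).

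Among 7 regulators of p53, 4 rose and 0 fell in RL, and 3 rose and 1 fell in JeKo-1. Beside this, 15.1% of all genes tested were called higher and 15.3% lower in RL, and 13.4% and 14.9% in JeKo-1. The list medians were 0.199 and 0.107 on the log2 scale, beside 0.007 and -0.007 over all genes. The damage kinase gene ATM rose in both (0.20 ± 0.05 and 0.49 ± 0.07), the deubiquitinase gene USP7 in RL (0.22 ± 0.05) and the MDM2 relative MDM4 in JeKo-1 (0.25 ± 0.07). TP53BP1 fell in JeKo-1 (-0.23 ± 0.07), a call that was lost without treated replicate 2 (adjusted p = 0.0879) and in DESeq2 (adjusted p = 0.0988). The RL rises were 2 without either control library or in DESeq2, and ATM's RL call was lost without control replicate 2 (adjusted p = 0.126).

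Relatives of the 9 genes did not all follow them. Of 13 relatives, 12 could be tested in each line, with 5 called higher and 2 lower in each. Their medians were 0.157 in RL and 0.087 in JeKo-1, beside 0.007 and -0.007 over all genes. Among all genes tested, 15.1% were called higher and 15.3% lower in RL, and 13.4% and 14.9% in JeKo-1. CDKN1C, which encodes the p57 inhibitor related to p21, went opposite ways. It stood at 1.66 and 1.34 CPM in the RL controls and 3.43 and 3.52 CPM after treatment, and at 3.30 CPM in the JeKo-1 control and 1.92 and 2.03 CPM after treatment. Its log2 fold change was 1.22 ± 0.15 in RL and -0.74 ± 0.22 in JeKo-1, and the difference was called (adjusted p = 1.27e-05). The JeKo-1 call alone was lost in DESeq2 (adjusted p = 0.342) and without treated replicate 1 (adjusted p = 0.0503). TP53INP2 fell in JeKo-1 (-0.82 ± 0.17; adjusted p = 0.118 in DESeq2), where TP53INP1 rose. ISG20, an exonuclease related to AEN, rose in both lines (1.03 ± 0.08 and 0.71 ± 0.15), and PLK4 rose in JeKo-1 (0.33 ± 0.07). The 2 falls in each line were 0 in DESeq2. In RL they were also 0 without control replicate 1 or treated replicate 2 and 1 without control replicate 2, and the 5 rises were 3 without control replicate 2 or treated replicate 2. In JeKo-1 the counts were 3 and 1 without treated replicate 1.

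Cell cycle genes that p21 is known to repress through the DREAM complex rose more often than they fell. Over all genes tested, 15.1% were called higher in RL and 13.4% in JeKo-1, and 15.3% and 14.9% lower. In RL 6 of 15 rose and 0 fell, with a median of 0.112, and in JeKo-1 9 rose and 1 fell, MYBL2, with a median of 0.223. MYBL2 had a log2 fold change of -0.22 ± 0.06 in JeKo-1, and its fall was absent in DESeq2 and without treated replicate 1. The 9 rises were 6 in those fits. The checkpoint kinase gene BUB1 rose in both lines (0.31 ± 0.04 and 0.79 ± 0.07), as did BUB1B (0.18 ± 0.05 and 0.42 ± 0.07) and E2F1 (0.30 ± 0.06 and 0.41 ± 0.07), and AURKA rose in JeKo-1 (0.37 ± 0.07). BUB1B lost its RL call without either control library (adjusted p = 0.162 and 0.0622), and E2F1 its JeKo-1 call in DESeq2 (adjusted p = 0.148).

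FOXO targets other than the 9 genes rose more often than they fell. Of 15 genes, 14 could be tested in each line. BTG1, CDKN1B and SESN3 are on this list and also among the relatives above. Of the growth arrest genes named earlier as FOXO targets, GADD45A and TP53INP1 rose in both lines and SESN1 in RL, whereas CDKN1A fell in both. Shares over all genes tested were 15.1% higher and 15.3% lower in RL, and 13.4% and 14.9% in JeKo-1. In RL 9 rose and 1 fell, SOD2, with a median of 0.410, and in JeKo-1 7 rose and 0 fell, with a median of 0.286. CCNG2, an unconventional cyclin linked to quiescence, rose in both (0.60 ± 0.09 and 0.85 ± 0.10), as did YPEL3 (1.35 ± 0.11 and 0.71 ± 0.16; adjusted p = 0.0942 in JeKo-1 by DESeq2). TSC22D3 (1.49 ± 0.10) and the BH3-only gene BCL2L11 (0.51 ± 0.05) rose in RL. TSC22D3 was not called in JeKo-1 (0.08 ± 0.11), and its difference in response was called (-1.40 ± 0.15). The BCL2L11 transcript used held 0 counts in every JeKo-1 library, so it could not be tested there. In JeKo-1 the 7 rises were 3 without treated replicate 1 or in DESeq2 and 4 with scaling by library size only. The SOD2 fall (-0.25 ± 0.09) was lost without either control library, without treated replicate 2, with scaling by library size only and in DESeq2.

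Immediate early genes of B-cell receptor signalling fell more often than they rose. Among the 9 genes, CDKN1A and PLK3 also fell in both lines and PLK2 in RL, whereas BTG2 rose in both. In RL 11 of 12 fell and 0 rose, with a median of -1.101, and in JeKo-1 7 fell and 0 rose, with a median of -0.624. For all genes tested, the shares were 15.1% higher and 15.3% lower in RL, and 13.4% and 14.9% in JeKo-1. The phosphatase gene DUSP2 fell in both (-1.87 ± 0.07 and -1.44 ± 0.12), as did EGR2 (-1.63 ± 0.23 and -2.92 ± 0.36) and IER2 (-1.10 ± 0.10 and -1.06 ± 0.13). MYC fell in RL (-2.55 ± 0.11) and had a log2 fold change of -0.08 ± 0.06 in JeKo-1 (adjusted p = 0.369). The 7 JeKo-1 falls were 4 without treated replicate 1. Any part of FOXO, immediate early or p53 signalling in the changes of the 9 genes was not tested.

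**Figure D4:**
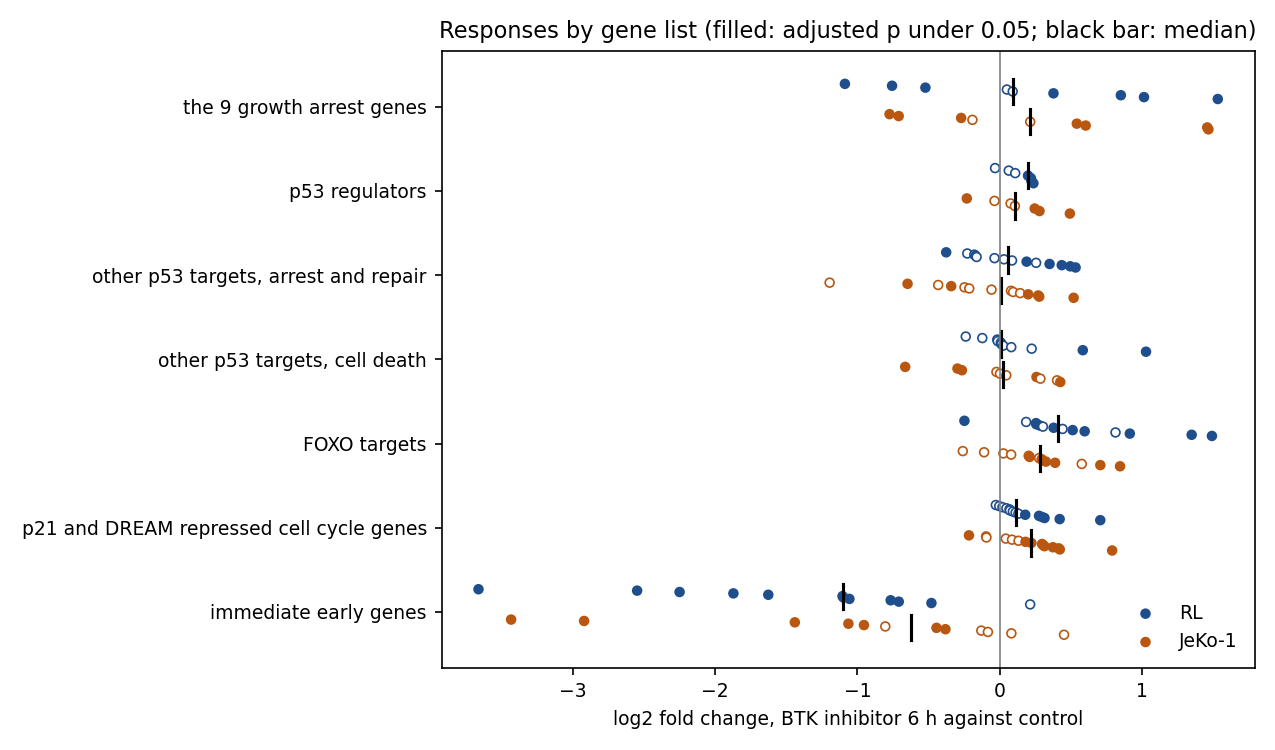
Log2 fold change (horizontal axis) of the 9 genes and of every tested gene of 6 lists (relatives not drawn) after 6 h of BTK inhibitor, blue for RL and orange for JeKo-1, filled where the adjusted p was under 0.05, with a black bar at the list median. The medians are 0.09 in RL and 0.21 in JeKo-1 for the 9 growth arrest genes, and both immediate early medians lie below 0, at -1.101 and -0.624.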

How the data were processed

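RNA of 7 samples was sequenced after preparation with a TruSeq RNA kit, an unstranded method. The submitters' processing notes name CASAVA 1.8, BWA and Partek 6.6 with the builds hg19 and GRCh37, without roles. Unnormalised read counts of 34917 RefSeq transcripts (22257 genes) were used as deposited, per the file headers. The authors made log2 ratios of treated to control, per the file headers, which were copied only. The header of the JeKo-1 ratio names an ALK inhibitor, although the sample columns beside it name the BTK inhibitor, so that ratio is not reported. The authors also gave a p-value and FDR for RL, per the file headers, from a test not given in the sources used here. The other 9 numeric columns were not used, and a deposited table of signed folds was left out because it holds a subset of the same transcripts.

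Transcripts of a gene largely repeat the same reads, so 1 transcript stood for each gene, the one whose counts averaged highest across all 7 libraries. All transcripts were tested by quasi-likelihood in edgeR 4.0.16 (R 4.3.3) after filterByExpr and TMM scaling, with Benjamini-Hochberg adjustment over all transcripts tested and calls at an adjusted p under 0.05. RL was fitted with 25099 transcripts and 2 residual degrees of freedom. JeKo-1 was fitted with 23564 transcripts and 1 residual degree of freedom. Differences between the lines came from 4 groups fitted together over all 7 libraries (26362 transcripts, 3 residual degrees of freedom). Standard errors are the log2 fold change over the root of the F statistic. CPM were computed with 1 set of TMM factors for all 7 libraries. Lengths are those of GENCODE v29 transcripts matched by RefSeq accession.

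Libraries summed to 32.4 to 56.8 M counts over all transcripts, and to 19.1 to 33.5 M with 1 transcript per gene. Libraries of a group scattered more than counting error, with a chi-square per degree of freedom of 3.41 to 4.55, so none was a repeat deposit of another. The procedures were also run on simulated counts that had the same spread for every transcript. Real transcripts differ in spread and share reads, so that run says nothing on how well calls hold in these libraries. Named genes were the 9 genes, up to 4 genes of each list with the smallest p in either line, and the 3 genes nearest in pattern to CDKN1A, MDM2 and TP53INP1. The members and the lists were chosen with earlier results of these data known. Alternatives covered scaling, filtering, DESeq2 1.42.0, limma-voom (limma 3.58.1), 1 transcript per gene, leaving out each library, the joint fit of 4 groups and a replicate block. Results of 1 further gene are not reported here.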

Additional observations from a re-analysis of the deposited data

Results flagged for a closer look

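The response to the inhibitor differed between the lines, by the test of the difference itself in the fit of all 7 libraries, for 5 of the 9 genes. On the log2 scale JeKo-1 minus RL, the differences were 0.57 for MDM2, 0.46 for GADD45A, -0.30 for BTG2, -0.56 for SESN1 and -0.35 for AEN. MDM2 rose in both treated JeKo-1 libraries relative to the control, while its treated RL libraries overlapped the RL controls. GADD45A and BTG2 rose in both lines. Each of these differences rests on the single JeKo-1 control.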

How the results depend on the processing

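Over the alternatives, 105 of 108 values of single genes in RL, 77 of 81 in JeKo-1, 86 of 108 for the difference in response and 108 of 108 for the untreated lines kept their direction and their side of the threshold. Among list genes named above, 414 of 429 values did, and 0 turned. With DESeq2, 2956 rather than 4543 genes were called in RL and 1581 rather than 3970 in JeKo-1, and 21 of the list genes in JeKo-1 in place of 43. It called 3 differences in response in place of 5, with 1 lower in place of 3. Leaving out 1 library gave 5 to 7 called members in JeKo-1 (1 to 3 lower), 2397 to 2931 genes and 25 to 34 list genes there, the lowest without treated replicate 1, and 3 to 5 differences in response (1 to 3 higher and 1 to 3 lower). In RL it gave 6 or 7 called members. Signs turned for values that were not called. PLK2 in JeKo-1 ranged from -0.18 (without treated replicate 2) to 0.54 (without treated replicate 1). The PLK3 difference was -0.032 with scaling by library size only and ranged from -0.063 to 0.16 with 1 library left out, below 0 without RL control replicate 1, RL treated replicate 2 or treated JeKo-1 replicate 2. With 1 library left out, the TP53INP1 difference ranged from -0.12 to 0.037, above 0 without RL treated replicate 2 or treated JeKo-1 replicate 1. The cause of these changes was not tested. With replicate number as a block, RL gave 4416 called genes, the same 7 called members and 42 in place of 44 list genes. Deviations of RL libraries of the same number were not correlated across genes (r = -0.00965). Counting noise in single libraries weakens such a correlation, so it cannot show whether these samples were handled together. No paired fit was possible for JeKo-1, because it has 1 control. Fits without a treated JeKo-1 library used all 4 groups, so the lone treated library is assumed to vary like the others, and the JeKo-1 control could not be left out. The low counts of PLK2 in JeKo-1 limit the precision of its fold change there.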
